A study of Drosophila melanogaster with 2 samples.

Results

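Small nucleolar RNA (snoRNA) and small nuclear RNA (snRNA) genes were scored for binding of CG7745, a Drosophila melanogaster protein, in whole embryos. The set holds every gene of either biotype on the 6 main chromosome arms of the Ensembl annotation of genome build dm6, which is 301 of 18164 annotated genes. Of the 301, 269 were snoRNA genes (small RNAs of Cajal bodies, named scaRNA, included) and 32 were snRNA genes. A gene was called when a peak summit lay within 500 bp of its start, on either side, in a given list of ChIP-seq peaks. ChIP-seq sequences the DNA that an antibody pulls down along with a chromatin protein, and a summit is the highest point of a peak in those reads.

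The only group comprised 2 ChIP-seq libraries, biological replicates 2 and 3, with no second genotype, treatment or age. Both came from whole embryos 0 to 12 hours old of 1 transgenic fly line, in which CG7745 carried green fluorescent protein (GFP) at its C-terminus, and the description in the labels gives the precipitating antibody as directed against GFP while their antibody field names CG7745. The tagged protein came from a transgene in a single line, and untagged embryos, the promoter driving the transgene and the state of the native gene were not analysed here. The 4 peak lists were those of each replicate, of both pooled, and an IDR list, meant to keep peaks that repeat between replicates. Its counts equalled those of ranks 1 to 1874 of the pooled list, at 16 small RNA genes and 868 annotated genes. The IDR and pooled lists are therefore not separate evidence. Each replicate and pooled list holds 30000 peaks and the IDR list 1874, all called against 1 shared control, and read depth is unknown. In whole embryos, weak binding in many cells and strong binding in few cannot be told apart.

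Most snRNAs are the RNA cores of the spliceosome, the machine that removes introns. Their genes carry promoters of their own, marked in flies by an upstream element called PSEA that the factor SNAPc binds. RNA polymerase II makes most snRNAs, while U6, U6atac and 7SK come from RNA polymerase III, and in their promoters a TATA box stands downstream of the PSEA. Most snoRNAs guide chemical changes on ribosomal RNA: box C/D snoRNAs guide ribose methylation and box H/ACA snoRNAs guide the conversion of uridine to pseudouridine. Many animal snoRNAs have no promoter of their own and are cut from introns of a host gene, often a ribosomal protein gene or a noncoding host (Uhg, for U snoRNA host gene) whose introns are its main product, so the start of such a gene is a processing point and not a transcription start.

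The upstream windows below show what the snRNA genes with the most repeatable summits have in common before transcription starts, from position -75 to -16 relative to the gene start. The 60 bases are read 5′ to 3′ on the gene's strand from the Release 6 genome as held by RefSeq (build dm6). Capitals mark TTCNCAA, letters that lie inside the PSEA, where N is any base, and also the TATA-like letters TATANA. The 9 genes had a summit within 500 bp in the pooled list and in both replicate lists.
snRNA:U5:63BC (chr3L:3090726-3090785, plus strand): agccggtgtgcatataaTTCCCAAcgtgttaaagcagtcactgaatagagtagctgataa
snRNA:U1:95Ca (chr3R:23859646-23859705, minus strand): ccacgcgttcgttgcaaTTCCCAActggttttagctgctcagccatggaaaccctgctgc
snRNA:U1:95Cc (chr3R:23826259-23826318, plus strand): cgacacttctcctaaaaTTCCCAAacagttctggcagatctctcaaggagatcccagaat
snRNA:U2:34ABb (chr2L:13215764-13215823, plus strand): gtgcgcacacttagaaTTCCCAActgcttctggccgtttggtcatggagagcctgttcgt
snRNA:U4:39B (chr2L:21215194-21215253, minus strand): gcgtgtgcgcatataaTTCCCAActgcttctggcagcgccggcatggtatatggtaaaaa
snRNA:U7 (chr3L:3593748-3593807, plus strand): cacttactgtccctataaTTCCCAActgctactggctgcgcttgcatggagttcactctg
snRNA:U6:96Aa (chr3R:24556013-24556072, plus strand): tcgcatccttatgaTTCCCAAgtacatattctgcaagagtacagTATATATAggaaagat
snRNA:U6:96Ac (chr3R:24557140-24557199, plus strand): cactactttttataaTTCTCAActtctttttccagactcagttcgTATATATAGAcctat
snRNA:7SKa (chr3R:7475012-7475071, minus strand): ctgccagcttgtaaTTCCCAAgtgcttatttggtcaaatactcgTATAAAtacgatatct

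The next windows belong to snRNA genes with no summit within 500 bp in any list, and are shown because all but the last carry the same letters in the same place.
snRNA:U12 (chr3L:16653694-16653753, plus strand): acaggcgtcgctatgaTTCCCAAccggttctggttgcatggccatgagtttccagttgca
snRNA:U4atac (chr3R:5195179-5195238, minus strand): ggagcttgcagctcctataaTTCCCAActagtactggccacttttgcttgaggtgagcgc
snRNA:U2:14B (chrX:16254597-16254656, plus strand): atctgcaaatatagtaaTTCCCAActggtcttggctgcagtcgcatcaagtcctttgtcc
snRNA:U6atac (chr2L:8389649-8389708, plus strand): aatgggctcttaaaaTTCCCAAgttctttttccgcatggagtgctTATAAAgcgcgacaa
snRNA:7SKb (chr3R:23432794-23432853, plus strand): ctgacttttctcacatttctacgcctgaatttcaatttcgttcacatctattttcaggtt

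On the gene's own strand, TTCNCAA stood in 31 of 32 snRNA windows, starting between -64 and -55 with a median of -58, and the exception was 7SKb. Counting both strands, the letters were in 96.9% of snRNA windows, against 10.5% of windows of the 38 snoRNA genes with their own promoter and 4.02% of windows of all annotated genes. They were found in 15 of 15 snRNA genes with a pooled summit and in 16 of 17 without one. The letters therefore did not separate snRNA genes with a summit from those without. U11 held a second copy at -39. TATANA stood on the gene's strand in 5 windows: those of the U6 genes 96Aa, 96Ab and 96Ac, of U6atac and of 7SKa, all genes of the polymerase III type. Counting both strands, TATANA was in 18.8% of snRNA windows against 20.8% of windows of all genes. By pooled summit, it was in 5 of 15 snRNA genes with one (33.3%) and in 1 of 17 without (5.88%), a difference that was not tested, and the 3 U6 genes among the 5 are copies of each other. These matches describe letters and do not show that a factor binds there.

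The snoRNAs below show the products in whose neighbourhood summits of the IDR list lay: 2 box C/D snoRNAs from ribosomal protein introns, 1 box H/ACA snoRNA from such an intron, and snoRNA:CG31191-a, which had the strongest peak of all 301 genes. Each is the whole gene on its own strand. Capitals mark TGATGA (in box C) and CTGA (box D) in the first pair and ACA, placed 3 bases before the end, in the third. No letters are marked in the last.
snoRNA:Me28S-A774b (chr3L:13023580-13023652, plus strand): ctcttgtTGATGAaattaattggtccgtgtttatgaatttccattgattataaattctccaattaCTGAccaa
snoRNA:U49:66Da (chr3L:8601473-8601552, plus strand): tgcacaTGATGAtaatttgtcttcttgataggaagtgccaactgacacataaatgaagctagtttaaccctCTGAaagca
snoRNA:Psi18S-1275 (chr3R:9778398-9778537, plus strand): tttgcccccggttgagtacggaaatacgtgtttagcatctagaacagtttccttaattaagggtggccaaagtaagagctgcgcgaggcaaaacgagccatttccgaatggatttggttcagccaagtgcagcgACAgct
snoRNA:CG31191-a (chr3R:20912733-20912879, minus strand): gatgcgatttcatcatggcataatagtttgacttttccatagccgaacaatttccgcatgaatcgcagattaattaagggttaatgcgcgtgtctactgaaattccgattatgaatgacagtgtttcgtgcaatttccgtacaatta

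The snoRNA names were checked against these letters. Of 91 genes named as box C/D, 66 held TGATGA and 84 held CTGA in their last 20 bases, and their median length was 79 bases. Of 114 genes named as box H/ACA, 106 held ACA at 3 bases before the end, and their median length was 140 bases. The names therefore fitted the sequences for most genes, and a further 16 were scaRNAs and 48 carried other names.

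The 301 genes fell into 3 classes by position. A total of 196 lay in an intron of a protein-coding gene on the same strand (185 snoRNA and 11 snRNA genes), 46 lay in an intron of a noncoding host (all snoRNA genes), and 59 had neither and are called here genes with their own promoter (38 snoRNA and 21 snRNA genes). Of these 59, 12 overlapped an exon of a coding isoform and 15 lay in an intron of a gene on the opposite strand, so for the snoRNA genes among them the class is a default and no promoter was mapped. The 11 snRNA genes in coding introns carried the TTCNCAA letters as well. The classes therefore describe position and do not part genes with a promoter from genes without one. Hosted genes were spread along their hosts: the median distance from the nearest upstream transcription start site (TSS) of the host was 1692 bp in protein-coding hosts and 1202 bp in noncoding hosts.

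In the IDR list, 16 of 301 small RNA genes had a summit (5.32%, exact 95% interval 3.07 to 8.49%), against 4.78% of all annotated genes and 5.23% of protein-coding genes. At this window the share lay near the background. It depended on the window: within 1000 bp, 38 genes had an IDR summit (12.6%, 9.09 to 16.9%), against 6.59% of all genes. In the pooled list 99 had a summit (32.9%, 27.6 to 38.5%), against 41.0% of all genes and 44.2% of protein-coding genes. Replicate 2 gave 97 (32.2%, 27 to 37.8%), against 38.8% of all genes, and replicate 3 gave 121 (40.2%, 34.6 to 46%), against 41.2%. Requiring the pooled list and both replicate lists left 58 genes (19.3%, 15 to 24.2%), against 28.5% of all genes. At 500 bp the pooled and replicate 2 intervals, and that of the lists combined, lie below the share of all genes, while the replicate 3 interval contains it. Within 1000 bp the combined count was 124 (41.2%, 35.6 to 47%), against 39.4% of all genes, so the lower share did not hold at the wider window. These intervals treat genes as independent, although the 99 genes shared 80 pooled summits.

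The shares were then counted by class. Genes in protein-coding introns had an IDR summit in 6 of 196 cases (3.06%, 1.13 to 6.54%) and a pooled summit in 53 (27%, 21 to 33.8%). The pooled share there was 47 of 185 snoRNA genes (25.4%, 19.3 to 32.3%) and 6 of 11 snRNA genes (54.5%, 23.4 to 83.3%). Genes in noncoding hosts had an IDR summit in 4 of 46 cases (8.7%, 2.42 to 20.8%) and a pooled summit in 16 (34.8%, 21.4 to 50.2%). Genes with their own promoter had an IDR summit in 6 of 59 cases (10.2%, 3.82 to 20.8%) and a pooled summit in 30 (50.8%, 37.5 to 64.1%). All 3 IDR intervals contain the 4.78% of all genes. In the pooled list the interval of genes in protein-coding introns lies below the 41.0% of all genes, and those of the other classes contain it. Differences between classes were not tested. In the pooled and both replicate lists together, the classes had 30 (15.3%), 8 (17.4%) and 20 (33.9%) genes in the same order.

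**Figure D1:**
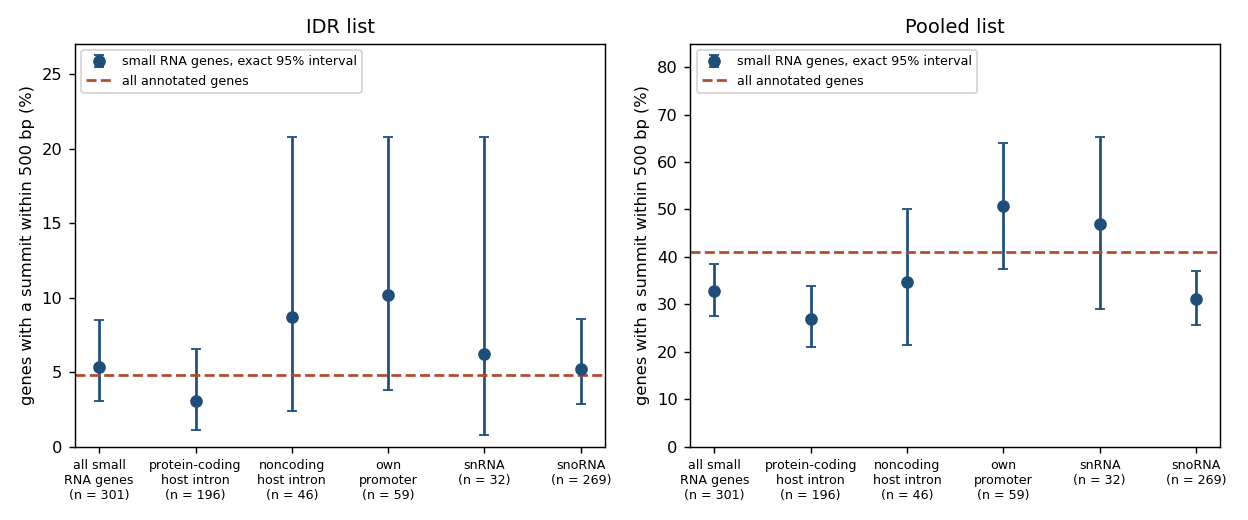
Share of small RNA genes with a summit within 500 bp of the start (percent, vertical axis) in the IDR list (left) and the pooled list (right), for all 301 genes, the 3 position classes and the 2 biotypes. Points are shares, bars are exact 95% binomial intervals over genes, and the dashed line is the share of all annotated genes, 4.78% and 41.0%. In the pooled list, genes in protein-coding introns sit at 27% and genes with their own promoter at 50.8%.

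The 16 genes with an IDR summit shared 14 summits, and all 16 also had a summit in each replicate list. The signal, the score a peak was given over the control on an unstated scale, was between 122 and 261 at these genes (median 156), against a median of 168 over the 1874 IDR peaks, and 7 of the 16 were above that median. By signal they ranked 204 to 6167 in replicate 2 and 553 to 2572 in replicate 3. For 14 of the 16 genes the summit lay upstream of the small RNA's start. Nearness to a coding gene went with the call: 8 of 32 small RNA genes that start within 500 bp of a coding TSS had an IDR summit (25%, 11.5 to 43.4%), and 8 of the other 269 did (2.97%, 1.29 to 5.78%). Among other noncoding genes more than 500 bp from a coding TSS, 2.61% had an IDR summit and 27.0% a pooled one. The share of other noncoding genes nearer a coding TSS was not counted, so the 25% cannot be called particular to small RNA genes.

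**Figure D2:**
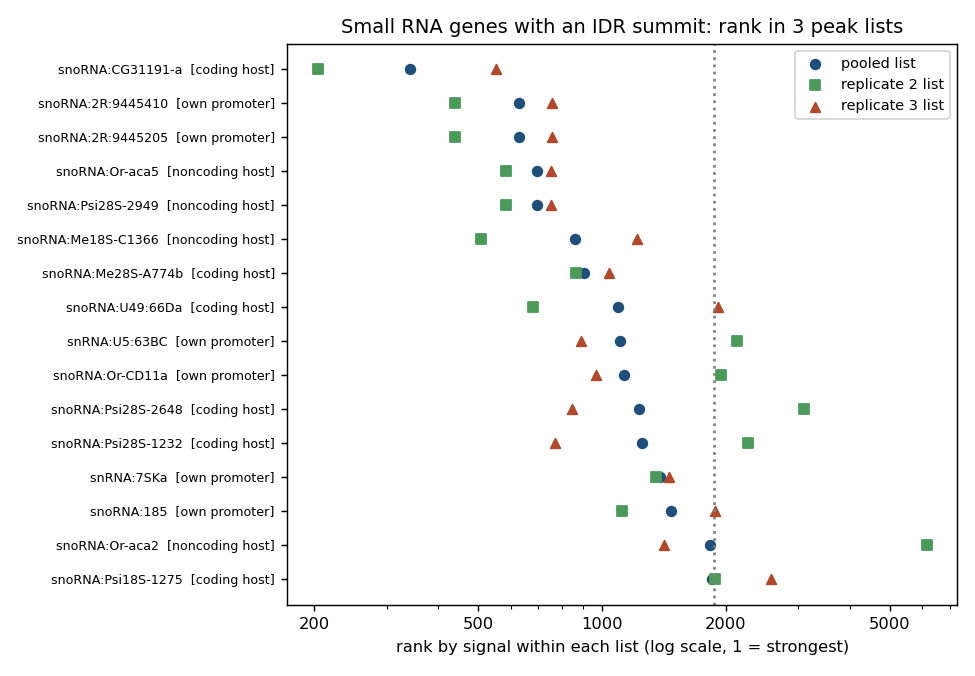
Rank by signal (horizontal axis, log scale, 1 is the strongest peak) of the peak at each of the 16 small RNA genes with an IDR summit, in the pooled, replicate 2 and replicate 3 lists. The dotted line is rank 1874, the length of the IDR list. In replicate 2 the ranks run from 204 (snoRNA:CG31191-a) to 6167 (snoRNA:Or-aca2), and in replicate 3 from 553 to 2572.

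Of the 6 genes in protein-coding introns with an IDR summit, 5 were snoRNAs of ribosomal protein genes, whose products build the ribosome. The box C/D snoRNA Me28S-A774b lies 228 bp downstream of the TSS of RpS12, and the IDR summit stood 154 bp upstream of the snoRNA, that is 74 bp past the host TSS. Its signal was 171 in the pooled list, 74.1 in replicate 2 and 103 in replicate 3. U49:66Da, a box C/D snoRNA, lies 467 bp into RpL14, with the summit 487 bp upstream and 20 bp before the host TSS. The signal was 156 in the pooled list, 81.7 in replicate 2 and 77.9 in replicate 3. In both cases the summit stood near the host TSS and not over the snoRNA. The peak interval at RpS12 did reach into Me28S-A774b, ending at 13023623 while the snoRNA starts at 13023580. The peak interval at RpL14 ended before U49:66Da.

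The remaining 3 of these 5 guide pseudouridylation and showed the same arrangement. Psi28S-2648 in RpL36A had its summit 444 bp upstream and 65 bp past the host TSS, with a signal of 148 in the pooled list, 44.1 in replicate 2 and 112 in replicate 3. Psi28S-1232 in RpL17 had its summit 396 bp upstream and 27 bp past the nearest host TSS, with 147, 50.1 and 117 in the same lists. Psi18S-1275 in RpS29 had its summit 268 bp upstream and 33 bp past the host TSS, with 122, 54.3 and 68.2. Psi28S-2648 and Psi28S-1232 ranked 3093 and 2261 in replicate 2 but 847 and 768 in replicate 3, so the replicates placed them differently.

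The sixth, snoRNA:CG31191-a on chromosome arm 3R, differed from these. It lies 32651 bp from the nearest upstream TSS of its host CG31191, and the IDR summit stood 41 bp inside the snoRNA gene. The peak, chr3R:20912731-20912934, nearly coincided with the gene, chr3R:20912733-20912879, whose sequence is printed above. Its signal was 261 in the pooled list (rank 341), 129 in replicate 2 (rank 204) and 134 in replicate 3 (rank 553), with replicate summits 62 and 41 bp downstream of the start. The nearest coding TSS was that of hdly, 1458 bp away. It was the only one of the 10 hosted genes with an IDR summit whose summit was more than 100 bp from a host TSS.

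Across the hosted genes with an IDR summit, the summit followed the host's start. For 5 of 6 genes in protein-coding hosts, and for 4 of 4 genes in noncoding hosts, of which 2 share a summit, it lay within 100 bp of a host TSS. The median distances over these genes were 49 and 43.5 bp. Small RNA genes within 500 bp of the TSS of a protein-coding host had an IDR summit in 4 of 17 cases (23.5%, 6.81 to 49.9%), and those farther into the host in 2 of 179 (1.12%, 0.136 to 3.98%). All 4 of the near genes lay in ribosomal protein hosts (4 of 14, 28.6%, 8.39 to 58.1%), and 0 of 3 in other hosts were called. In noncoding hosts the near and far counts were 4 of 9 (44.4%, 13.7 to 78.8%) and 0 of 37 (0 to 9.49%). The share of all annotated genes was 4.78%. In the pooled list the strongest summit lay within 100 bp of a host TSS for 7 of 53 genes in protein-coding hosts and 5 of 16 in noncoding hosts, and within 500 bp for 13 and 6.

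The window edge cut through this arrangement. Just inside it were U49:66Da at 487 bp and Or-CD11a at 473 bp upstream. Just outside were Me18S-C1096 in RpL3 at 517 bp, Psi28S-1153 at 518 bp, Me28S-C3227a in Uhg5 at 571 bp, Me28S-A2113 in RpL30 at 576 bp and Me18S-C1831 in RpL27A at 608 bp, with signals of 154, 202, 175, 218 and 153. In all, 22 genes had their nearest IDR summit between 500 and 1000 bp away, at 17 distinct summits, and 19 of the 22 were hosted. For all 22 genes the summit lay upstream. Within 1000 bp, the nearest IDR summit was upstream of the start for 36 of 38 small RNA genes (94.7%), against 763 of 1197 of all annotated genes (63.7%). Of the 38, 29 were hosted. A hosted gene lies downstream of a host TSS by the class rule, so a summit at that TSS is upstream of it. The comparison with all genes is partly set by this rule. Among genes with their own promoter, the summit was upstream for 8 of 9.

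**Figure D3:**
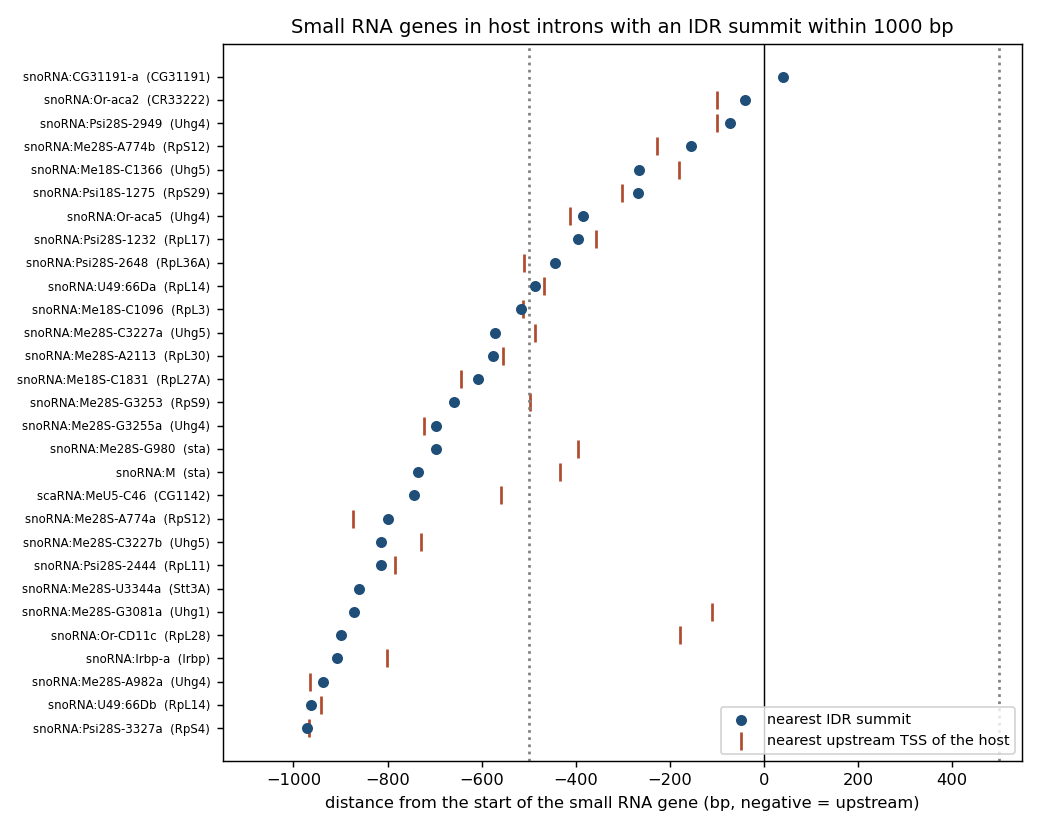
Position of the nearest IDR summit (circles) and of the nearest upstream TSS of the host (bars), in bp from the start of the small RNA gene, for the 29 hosted genes with an IDR summit within 1000 bp. Negative values are upstream, dotted lines mark 500 bp, and the host TSS of CG31191 and Stt3A lie outside the axis. In 28 of the 29 rows the summit is upstream, and in 20 of them it lies within 100 bp of the host TSS drawn.

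The hosts themselves held summits at their starts even where their small RNAs had none. Of 86 protein-coding hosts, 30 had an IDR summit at most 500 bp from a TSS (34.9%, 24.9 to 45.9%) and 76 a pooled one (88.4%, 79.7 to 94.3%), against 6.32% and 46.7% of all protein-coding genes. In 25 of the 30, no hosted small RNA gene had an IDR summit of its own. Counted by small RNA gene, 5 of the 56 in these 30 hosts had one, against 4.78% of all annotated genes. That count is therefore no sign of fewer summits at these small RNA genes. Hosts had a median of 2 annotated TSS and the protein-coding genes hosting none a median of 1. Counting the annotated gene start alone, 24 hosts had an IDR summit (27.9%, 18.8 to 38.6%), against 5.09% of protein-coding genes hosting none.

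Ribosomal protein genes made up 28 of the 86 hosts. Of these 28, 16 had an IDR summit at a TSS (57.1%, 37.2 to 75.5%), and of 58 ribosomal protein genes hosting no small RNA, 22 did (37.9%, 25.5 to 51.6%). The intervals overlap, and the difference was not tested. Of 58 other hosts, 14 had one (24.1%, 13.9 to 37.2%), against 829 of 13801 other protein-coding genes hosting none (6.01%, 5.62 to 6.42%). At the annotated gene start alone, the other hosts had 8 of 58 (13.8%, 6.15 to 25.4%), against 4.96% of other genes hosting none. Earlier results of these data had already shown ribosomal protein genes to hold many IDR summits, so that part is no independent observation.

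The strongest host peaks were not all at ribosomal protein genes. CG1142, host of scaRNA:MeU5-C46, had a signal of 511 in the pooled list (rank 69), 163 in replicate 2 (rank 116) and 343 in replicate 3 (rank 62). Stt3A, a subunit of the enzyme that transfers sugar chains to secretory proteins, had 303 in the pooled list, 117 in replicate 2 and 195 in replicate 3. RpS4 had 272, 103 and 187 in the same lists. Next came hts, an adducin of the membrane skeleton, with a pooled signal of 255, then tou, a chromatin factor, with 246, RpL11 with 239, the transcription factor gene lola with 225 and the chromatin remodeller gene kis with 221. Stt3A and RpS4 host 3 small RNA genes each, lola 4 and each of the others 1. None of the small RNA genes in these 8 hosts had an IDR summit. They are too few to be set against the 4.78% of all annotated genes. The hosts were named for their signal after it was seen. Not all of these summits were close to a host TSS. Their positions from it (negative is upstream) were -403 bp in Stt3A, -302 in tou, -184 in CG1142 and -171 in hts. In kis, RpS4, RpL11 and lola they were 136, 40, -29 and 0 bp.

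Hosts of many small RNAs included some with weak peaks at their start. Arpc2, a subunit of an actin-nucleating complex and host of 17 small RNA genes, had a pooled signal of 45.1 (rank 14527) and no summit in replicate 2. The chromatin remodeller gene dom, with 15, had a pooled signal of 113, and RpS5a, with 14, had 77.9. The gene kra, with 8, had an IDR summit with a signal of 135. None of the small RNA genes in these 4 hosts, named for their many small RNAs or their signal, had an IDR or pooled summit, though some had one in a replicate list. Not all hosts of many were like this: pooled summits stood at 2 of 9 small RNA genes in Sf3b3 and 4 of 7 in Hrb98DE. Over all 301 small RNA genes the pooled share was 32.9%, against 41.0% of all annotated genes.

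Of the 8 noncoding hosts, 3 had an IDR summit at a TSS. Uhg4 carries 7 snoRNA genes, and a summit 27 bp past its TSS lay near the starts of the box H/ACA snoRNAs Psi28S-2949, 72 bp downstream of it, and Or-aca5, 385 bp downstream. The signal there was 194 in the pooled list, 86.5 in replicate 2 and 118 in replicate 3. Uhg5 carries 11 snoRNA genes, and its peak, with signals of 175, 90.2 and 96, stood 265 bp upstream of the methylation guide Me18S-C1366. That summit also lay 197 bp from the TSS of the coding gene CG12863. The third host, the pseudogene CR33222, overlaps RpS6, and its snoRNA Or-aca2 had a summit 39 bp upstream, 89 bp past the RpS6 TSS, with signals of 123, 32.9 and 89.7.

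The other noncoding hosts were weaker or empty. Uhg1 carries 16 snoRNA genes, the most of the 8, and had at its TSS a pooled signal of 51.8 (rank 11243), 23.8 in replicate 2 and 32.7 in replicate 3. Uhg2 had a pooled signal of 111 and Uhg8 one of 65.9. Uhg3 and lncRNA:CR31647 had no summit at a TSS in any of the lists. The summits at these hosts were thus not shared by all members of the Uhg group.

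Among genes with their own promoter 6 had an IDR summit, and 4 of them were snoRNA genes. The adjacent genes snoRNA:2R:9445205 and snoRNA:2R:9445410 shared a peak 354 and 149 bp upstream of their starts, with a signal of 202 in the pooled list, 95.2 in replicate 2 and 118 in replicate 3. That summit also lay 341 bp from the TSS of the coding gene CG13334. Or-CD11a overlaps an exon of RpL28, and its summit, 473 bp upstream, was 54 bp from the RpL28 TSS, with signals of 154, 53.5 and 106. These 3 genes therefore had their summit within 500 bp of a coding TSS. The shared summit was nearer the start of snoRNA:2R:9445410, at 149 bp, than the CG13334 TSS, at 341 bp.

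The remaining 3 had no coding TSS within 500 bp of the summit. snoRNA:185 had a summit 148 bp upstream with a signal of 135 in the pooled list, 67.2 in replicate 2 and 78.6 in replicate 3, and the nearest coding TSS was 13224 bp away. The replicate summits stood 27 and 198 bp upstream, so their positions differed by more than 100 bp. The others were the snRNA genes U5:63BC and 7SKa, described with their families. Of all 59 genes in this class, 51 start more than 500 bp from any coding TSS, and 26 of the 51 had a pooled summit (51%, 36.6 to 65.2%), against the 27.0% of other noncoding genes at that distance. In the IDR list the count was 4 of 51 (7.84%, 2.18 to 18.9%), against 2.61%.

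Below the IDR list, snoRNA genes with their own promoter included several summits close to the start. Psi28S-3342 had one 11 bp into the gene with a signal of 90.2 in the pooled list, 28 in replicate 2 and 75.9 in replicate 3. Psi28S-2622 had one 1 bp from its start with 85.5, 42.7 and 53.5 in the same lists. Psi18S-301 had one 133 bp upstream with 105, 44.9 and 61.3. All 3 are pseudouridylation guides and were named for their signal and closeness to the start after both were seen, so their shared kind is no result about the class. Farther from the start, snoRNA:CG43051-a had a pooled signal of 114 (199 bp upstream) and Or-ACA6 one of 96.8 (369 bp upstream). The scaRNA MeU1:95C-A24 had one of 88.9 (321 bp downstream). Over the class, 21 of 38 snoRNA genes had a pooled summit (55.3%, 38.3 to 71.4%) against 41.0% of all genes, and 15 had one in all 3 lists (39.5%, 24 to 56.6%), against 28.5%. Both intervals contain the share of all genes.

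Of the 32 snRNA genes, 2 had an IDR summit (6.25%, 0.766 to 20.8%), 15 a pooled summit (46.9%, 29.1 to 65.3%) and 9 a summit in the pooled and both replicate lists (28.1%, 13.7 to 46.7%). These 3 intervals contain the shares of all genes, 4.78%, 41.0% and 28.5%. At the 15 genes, of which 2 share a summit, the pooled summit lay between 335 bp upstream and 353 bp downstream of the start, with a median of 43 bp downstream. It was within 150 bp of the start at 10 of the genes and downstream of the start at 9.

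The strongest was U5:63BC, a copy of the gene for U5, the snRNA that holds the exon ends together during splicing. Its summit stood 39 bp upstream with a signal of 155 in the pooled list (rank 1108), 51.3 in replicate 2 (rank 2133) and 109 in replicate 3 (rank 890). The replicate summits lay 25 bp upstream and 109 bp downstream of the start. The nearest coding TSS, that of PAN3, was 8784 bp away. Of the other 6 U5 genes, only U5:34A had a pooled summit, in a peak that also lay 295 bp upstream of the divergent U2:34ABc.

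7SKa encodes the RNA that holds the elongation factor P-TEFb inactive. Its summit stood 225 bp into the gene with a signal of 140 in the pooled list (rank 1381), 62.2 in replicate 2 (rank 1355) and 88.5 in replicate 3 (rank 1458), and the replicate summits were 254 and 145 bp downstream of the start. The nearest coding TSS, 990 bp away, was that of CG1142, the host with the strongest peak. The gene 7SKb, which lacked the PSEA letters, had no summit in any list.

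U7, which directs the cutting of histone messenger RNA ends, had signals of 108 in the pooled list (rank 2440), 32.5 in replicate 2 and 77.8 in replicate 3. U4:39B, one of 3 genes for the U4 snRNA that escorts U6, had 96.7 (rank 3103), 56.3 and 35.2 in the same lists. The replicates ordered these 2 genes differently, with U7 below U4:39B in replicate 2 and above it in replicate 3. Both lie in introns of coding genes, Eip63E and Atg18b.

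U1 recognises the donor splice site. U1:95Ca had a signal of 93.2 in the pooled list, 24.2 in replicate 2 and 77.5 in replicate 3, and U1:95Cc had 34.8, 18.4 and 37.4. U2 pairs with the branch site, and U2:34ABb had 69.9, 14.4 and 54.8. U6 forms part of the catalytic core, and U6:96Ac had 91.2, 36.4 and 55.3 while U6:96Aa had 42.6, 16.6 and 28.1. The replicates placed U2:34ABb far apart, at rank 28181 in replicate 2 and 4242 in replicate 3.

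By family, pooled summits stood at 4 of 5 U1 genes, 2 of 6 U2 genes, 2 of 3 U4 genes, 2 of 7 U5 genes, all 3 U6 genes, U7 and 7SKa. In all 3 lists together the counts were 2, 1, 1, 1, 2, 1 and 1. The shares of all annotated genes were 41.0% in the pooled list and 28.5% in all 3 lists, and the families are too small to be set against them. The single genes of the minor spliceosome, which removes a rare class of introns (U11, U12, U4atac and U6atac), had no pooled summit, and U11 had one in replicate 3 alone with a signal of 20.5. Genes of 1 family thus differed among themselves, although nearly all carry the same PSEA letters.

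**Figure D4:**
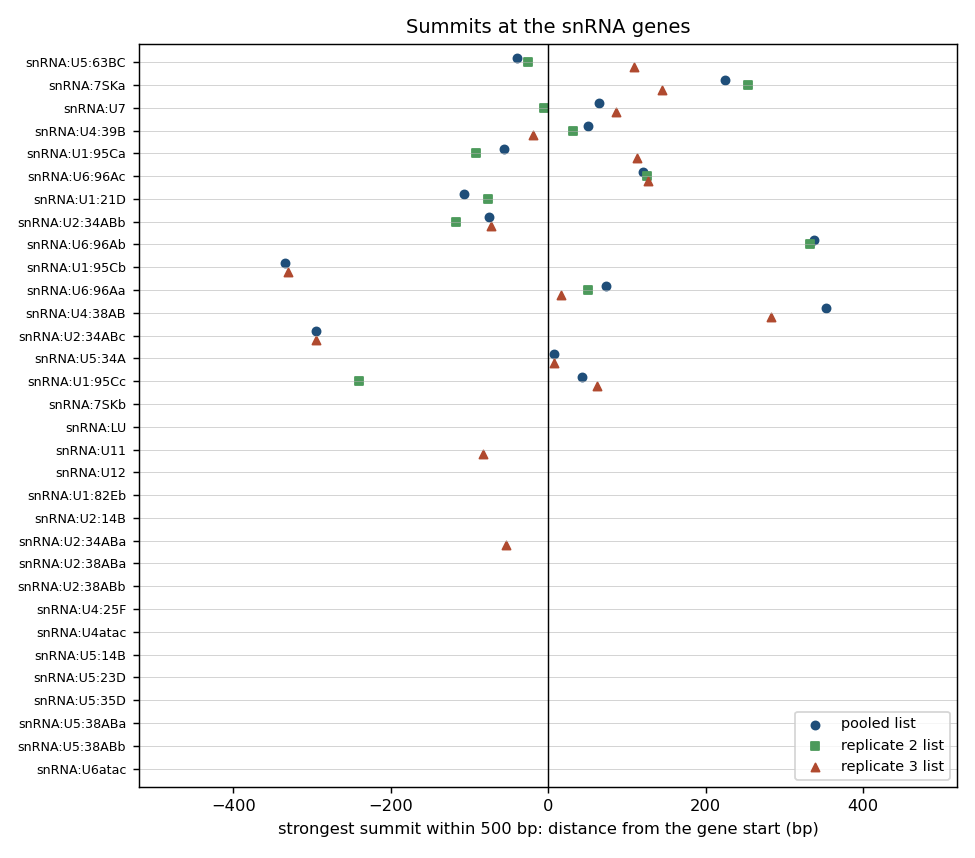
Distance from the gene start (horizontal axis, bp) of the strongest summit within 500 bp at each of the 32 snRNA genes, in the pooled, replicate 2 and replicate 3 lists. Genes run from the highest pooled signal at the top, and a row without symbols had no summit in that range. The upper 15 genes have a pooled summit, between 335 bp upstream and 353 bp downstream.

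Several of these genes are copies of each other, which bears on how reads can be placed. Of the 301, 12 were identical in sequence to another gene of the set: 3 U1, 2 U2 and 3 U6 genes and 4 snoRNA genes. All 12 had a pooled summit, against 41.0% of all annotated genes. Over the 250 bp on each side of the start, a median of 14.2% of 31-base words in snRNA windows occurred elsewhere in the genome, and a median of 0% in snoRNA windows. In 6 genes the share was above 50%, and 2 of these 6 had a pooled summit, the pair U3:54Aa and U3:54Ab at 85.1%. No source used here says how reads that match several places were handled, and its part in these calls was not tested.

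The replicates agreed on some of the genes. Both lists held a summit at 62 of the 301, replicate 2 alone at 35, replicate 3 alone at 59 and neither at 145. At the 62, the strongest summits of the 2 replicates were a median of 72.5 bp apart, and 40 were within 100 bp. Across these 62 genes the signals of the replicates had a Spearman rho of 0.793, given as a description because neighbouring genes share peaks and both lists share 1 control. Among genes with their own promoter, both replicates held a summit at 20 of 59, replicate 2 alone at 9, replicate 3 alone at 7 and neither at 23.

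By rank in the pooled list, the share of small RNA genes was below that of all genes at ranks 1875 to 20000. At the first ranks it was near that of all genes, with an interval of 3.07 to 8.49%. At the last ranks it was somewhat above, and none of these differences was tested. Ranks 1 to 1874 held 5.32% of small RNA genes against 4.78% of all genes, ranks 1875 to 5000 held 4.32% against 7.3%, and ranks 5001 to 10000 held 3.99% against 9.12%. Ranks 10001 to 20000 held 8.64% against 11.9%, and the weakest peaks, ranks 20001 to 30000, held 10.6% against 7.89%. By arm, the IDR count was 6 of 96 on 2R, 4 of 56 on 3L, 3 of 58 on 3R, 2 of 33 on X, 1 of 57 on 2L and 0 of 1 on chromosome 4. The exact interval of each arm contains the 4.78% of all annotated genes, from 2.33 to 13.1% on 2R and from 0.0444 to 9.39% on 2L. The share of all genes on each arm was not counted.

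The proteins that make and use these RNAs were read from a list of 55 genes in 8 groups, of which 54 were matched to the annotation. Of the 54, 7 had an IDR summit at most 500 bp from a TSS (13%, 5.37 to 24.9%) and 43 a pooled one (79.6%, 66.5 to 89.4%), against 6.32% and 46.7% of protein-coding genes. The IDR interval contains the background and the pooled one does not. Core proteins of the snoRNA particles accounted for 4 of the 7, at 2 of 4 box C/D and 2 of 4 box H/ACA protein genes. The others, Fib, hoip, Nop60B and Gar1, had pooled summits only. Nop56 and nop5, which bind box C/D snoRNAs, had pooled signals of 135 and 140, and NHP2 and Nop10, of the box H/ACA particle, had 139 and 143. In replicate 2 these 4 genes had 60.5, 60.6, 69 and 43.7, and in replicate 3 they had 84.5, 100, 65.3 and 127.

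SmD3, part of the protein ring on spliceosomal snRNAs, had the strongest peak of the list, with 203 in the pooled list, 101 in replicate 2 and 101 in replicate 3. Lsm10, of the U7 ring, had 129, 68.7 and 69.1, and pont, an ATPase that assists the assembly of snoRNA particles, had 134, 29.9 and 107. IDR summits stood at 2 of the 11 matched Sm and Lsm genes and at 1 of the 4 genes in the group of pont. The groups without an IDR summit were the 14 Integrator subunits that cut snRNA ends (11 with a pooled summit), the 7 SMN complex genes (4), the 6 SNAPc and TFIIIB genes that start snRNA transcription (5) and the 4 export and cap genes (3). The genes nop5, Fib and Nop60B also host snoRNAs, so they are counted among the hosts as well.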

How the data were processed

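The samples were 2 ChIP-seq libraries, grouped and numbered by the labels. Per the notes deposited beside each sample's files, the authors called peaks on each replicate and on both pooled against 1 shared control, on build dm6, and derived the IDR list from these. Neither aligner, peak caller nor IDR threshold is named in the sources used here. The deposited signal of a peak is the caller's value on an unstated scale, compared between lists by rank only. The deposited −log10 q values reach 3.56 in the pooled list, are tied at the top and were not used to rank.

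Genes came from Ensembl release 115 (BDGP6.54) and sequences from the RefSeq copy of genome Release 6. Distances run from the annotated start (members) or any TSS (hosts, protein list), and the strongest summit within 500 bp was taken. A hosted gene lies wholly in a same-strand intron, and for protein-coding hosts it overlaps no same-strand coding exon (snoRNA:Or-aca2, in a noncoding host, overlaps one). Shares carry exact (Clopper-Pearson) 95% intervals, which cover counting over genes only. With 1 group there was no contrast and no p-value. No per-sample column was left unused. The code was tested on simulated data. Scripts ran in Python 3.11.15 with pandas 2.3.3, NumPy 2.4.6 and SciPy 1.17.1, and figures came from matplotlib 3.10.9.

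The genes, the protein list and the classes were chosen with earlier results of these data known. Named genes are those with an IDR summit, the snRNA genes with a summit in all 3 other lists, their hosts, the 5 nearest just outside the window, and listed proteins with an IDR summit. Others are named where a sentence says so or gives a count. Alternatives were windows of 250 and 1000 bp, the upper part of each list, each replicate alone, peak overlap with the gene and 2 other host rules. Mitochondrial peaks were excluded.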

Additional observations from a re-analysis of the deposited data

How the results depend on the processing

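The window set the counts. With 250 bp, 8 of the 301 genes had an IDR summit (2 in protein-coding introns, 2 in noncoding hosts), against 3.66% of all genes, and with 1000 bp 38 did (20 and 9; 12.6%), against 6.59% of all genes. In the upper part of the IDR list by signal, 7 had a summit (2.33%, against 2.46% of all genes), 2 of them in protein-coding introns and 2 with their own promoter. Where the peak had to overlap the gene itself, the counts were 8, 2 in protein-coding introns and 2 in noncoding hosts. The count in the pooled and both replicate lists was 30 with 250 bp (9.97%, against 18.2% of all genes), 124 with 1000 bp (41.2%, against 39.4%), 34 in the upper part of each list (11.3%, against 17.4%) and 27 by overlap. With the strongest peaks of 1 replicate alone, 13 genes had a summit from either replicate (4.32%). The share of all genes was 5.03% without replicate 2 and 4.73% without replicate 3. Of the 13, 4 to 5 lay in protein-coding introns, 3 to 4 in noncoding hosts and 5 had their own promoter. Without 1 replicate list, 73 to 80 genes had a summit in the remaining 2. For these last counts and those by overlap, the share of all genes was not counted. Hosts on either strand left the IDR counts at 6, 4 and 6, and counting genes in an exon of another isoform as hosted, an alternative chosen after seeing the data, gave 8, 3 and 5. No paired analysis was possible because there is 1 group and no contrast. Depth is unknown, so a gene without a summit may have binding below each list's weakest peak.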
